A study of Mus musculus with 26 samples.

Results

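The 7 receptor genes followed here belong to the interleukin-1 (IL-1) family and were measured through mouse CD4 T cells: Il1rl1, Il1r1, Il1r2, Il1rap, Il18r1, Il18rap and Sigirr. They were picked by gene symbol, and all were found among the 21761 genes of each of 2 RNA-seq count tables. The first table held 20 libraries from 8 groups, and the second held 6 libraries from 2 groups. All mice were C57BL/6, and the CD4 T cells came from spleen and lymph nodes. Of the first table, 6 groups of 2 libraries came from Foxp3-eGFP reporter mice aged 5 to 6 weeks, in which green fluorescence reports Foxp3, the defining transcription factor of regulatory T cells (Tregs). These were naive cells sorted as CD4+eGFP-CD25-CD62LhiCD44lo, naive cells activated with anti-CD3 and anti-CD28 (Th0), and induced Tregs (iTregs) cultured with TGFb alone, TGFb with vitamin C, TGFb with retinoic acid, or TGFb with both. The other two groups of that table were Tregs sorted directly from mice aged 3 weeks as CD4+eGFP+ cells, 4 libraries each. The Tet2/3-deficient Tregs carried Tet2fl/fl Tet3fl/fl Foxp3-eGFP and CD4-Cre, which deletes in the T lineage from the thymus onward and so not in Tregs alone. The control Tregs carried the same floxed alleles and reporter without Cre. Tet2 and Tet3 encode dioxygenases that oxidise methylated cytosine. The second table compared 3 libraries of Foxp3+ iTregs sorted on day 6 with 3 libraries of cells from TGFb-induced iTregs that were restimulated with anti-CD3 and anti-CD28 and sorted as Foxp3- on day 6 after restimulation, from reporter mice aged 12 to 14 weeks.

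IL-1 family receptors work in pairs. A ligand-binding chain captures its cytokine and then recruits an accessory chain, and the joined intracellular TIR domains bind the adaptor MYD88 and activate IRAK kinases and NF-kB. Il1rl1 encodes ST2, the receptor for the alarmin IL-33, and marks a tissue-repair subset of Tregs. Il1r1 encodes the signalling receptor for IL-1, and Il1r2 encodes a decoy that binds IL-1 without signalling. Il1rap encodes the accessory chain shared by ST2 and IL-1 receptor 1. Il18r1 and Il18rap encode the ligand-binding and accessory chains of the IL-18 receptor, and Sigirr encodes an inhibitory member of the family.

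Of the members, Il1r2, Il1r1, Il1rl1, Il18r1 and Il18rap, follow each other in that order on chromosome 1 in the RefSeq table, with the IL-36 receptor gene Il1rl2 between Il1r1 and Il1rl1. Il1rap is on chromosome 16 and Sigirr on chromosome 7. TET enzymes act mainly on cytosine in the dinucleotide CG. The 250 bases before annotated transcription starts are shown for Il1rl1 and Il18rap, which were lower in Tet2/3-deficient Tregs, and for Il1rap, the member with the most CG. They are examples and not a contrast, since the other members' CG counts, given after them, overlap those of the lowered genes. Methylation was not analysed here. RefSeq windows (GRCm38.p6) were found for 6 of 7 members. The counts were made on mm9, so these coordinates belong to the reference and not to the counts. Il1rl1 has 2 windows, before a distal and a proximal start, and the gene-level counts do not show which start was used. All are on the plus strand, written 5′ to 3′, with each CG in capitals.
Il1rl1 distal start, chr1:40429320-40429569: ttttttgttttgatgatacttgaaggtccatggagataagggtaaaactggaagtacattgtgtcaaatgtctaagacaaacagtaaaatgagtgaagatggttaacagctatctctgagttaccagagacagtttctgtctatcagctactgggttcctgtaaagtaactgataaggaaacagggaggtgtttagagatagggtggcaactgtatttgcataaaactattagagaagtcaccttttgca
Il1rl1 proximal start, chr1:40439379-40439628: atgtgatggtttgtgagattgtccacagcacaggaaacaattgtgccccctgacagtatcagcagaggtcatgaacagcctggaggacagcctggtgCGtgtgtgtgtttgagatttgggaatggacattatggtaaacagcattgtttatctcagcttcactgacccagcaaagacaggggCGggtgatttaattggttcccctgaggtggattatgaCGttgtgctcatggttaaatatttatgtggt
Il18rap, chr1:40515112-40515361: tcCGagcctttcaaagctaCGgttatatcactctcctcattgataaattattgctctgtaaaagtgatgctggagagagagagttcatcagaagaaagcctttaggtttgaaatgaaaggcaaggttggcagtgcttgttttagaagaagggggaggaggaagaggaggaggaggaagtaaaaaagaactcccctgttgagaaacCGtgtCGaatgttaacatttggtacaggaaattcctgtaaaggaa
Il1rap, chr16:26581455-26581704: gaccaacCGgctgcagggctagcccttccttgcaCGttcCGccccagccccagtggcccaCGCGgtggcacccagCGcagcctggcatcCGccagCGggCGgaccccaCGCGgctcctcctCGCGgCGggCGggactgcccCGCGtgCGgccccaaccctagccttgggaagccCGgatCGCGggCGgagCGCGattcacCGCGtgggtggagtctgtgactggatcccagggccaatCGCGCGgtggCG
The distal Il1rl1 window held 0 CG, as did 7.87% of 32851 mouse windows of that length, and the proximal window held 3. Il18rap had 4 and Il1rap had 30, more than in 94.1% of all windows. The median over all windows was 6, and 92.1% held at least 1. Of the members not printed, Il18r1, which was also lower in the deficient Tregs, had 3, 7 and 6 in its 3 windows. Il1r1 had 3 and 7 in its 2 windows and Il1r2 had 14, and neither passed there. The counts of lowered members and of those that did not pass therefore overlapped. The letters GATAA, searched on both strands, occurred 2 times in the distal Il1rl1 window and 1 time in the proximal one. They occurred 1 time before Il18rap and 0 times before Il1rap, and 22.6% of all windows held them. Of the members not printed, Il18r1 had 0 in each of its 3 windows, Il1r1 had 0 in both and Il1r2 had 1. These counts, too, overlapped between lowered members and those that did not pass.

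Total counts per library ran from 9647669 to 11640223 in the naive and cultured groups, from 13397602 to 17672302 in the sorted Tregs and from 11293704 to 17219805 in the second table. The labels do not say whether libraries of a group came from separate animals, so p-values measure the spread between these libraries. Foxp3 stood at 25.99 and 26.33 CPM (counts scaled to the library total) in naive cells and between 541.5 and 737.3 CPM in the sorted Tregs. It was lower in the Tet2/3-deficient than in the control ones (log2 fold change -0.26 ± 0.07 SE, adjusted p = 0.0113). Of the targeted genes, Tet3 had 161.1, 131.9, 126.2 and 171.8 CPM in the controls and 113.1, 96.27, 98.4 and 114.5 CPM in the deficient libraries (-0.52 ± 0.10, adjusted p = 0.00255). Tet2 did not pass, with 14.97, 14.21, 9.964 and 15.74 CPM and 16.5, 12.73, 15.9 and 12.01 CPM (0.02 ± 0.15, adjusted p = 0.930). Counts over a whole gene include exons outside a floxed segment, so they are no full check of the genotype. The marker lists for CD4 T cells and Tregs were detected in full in every group, so detection alone does not tell Tregs from the others. The Treg list summed to 85.6 to 94.5 CPM in naive, 1540 to 1910 in Th0 and 1010 to 1060 in restimulated Foxp3- cells. Its sums were 2630 to 2960 CPM in control Tregs, 2330 to 2680 in deficient Tregs and 4270 to 4600 in iTregs with TGFb alone. In bulk RNA, fewer cells of a type and less RNA per cell cannot be told apart.

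The members fell into 2 kinds by where they were detected. Il1rl1, Il1r1 and Il1r2 were detected mainly in the groups of Tregs sorted from mice. Markers of other cells, given below, were also measured in these groups, and their part was not tested. Il1rap, Il18r1 and Sigirr were detected in all 10 groups and Il18rap in all groups but naive cells at more than trace level. Levels are compared between genes as FPKM, which scales counts by library total and exon length, and within 1 gene as CPM. Il1rl1 averaged 9.24 ± 1.52 FPKM (SD, n = 4) in control Tregs and 1.42 ± 0.536 in Tet2/3-deficient Tregs. It did not exceed 0.2113 FPKM in any library of the 6 naive and cultured groups, whose ranges overlapped from one group to the next except that both naive libraries had 0 counts. Il1r2, the decoy, averaged 20.55 ± 4.6 and 18.63 ± 2.99 FPKM in the control and deficient Tregs, with overlapping ranges, and at most 0.1544 FPKM in any naive or cultured library of the first table. Il1r1 was low everywhere, with 0.2053 ± 0.0687 FPKM in control Tregs, far below the decoy.

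Sigirr had the highest level of the family in every group of the first table. It made up between 52.1% and 76.7% of the family's summed FPKM there, and 66.4% in the day 6 iTregs of the second table. Restimulated cells had a different leading gene: Il18r1 held 50.1% of the sum and Sigirr 35.1%. The summed FPKM of the 7 genes was highest in control Tregs (105 ± 8.72, n = 4) and lowest in iTregs made with TGFb and retinoic acid (37.8 ± 0.101, n = 2) within the first table.

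**Figure D1:**
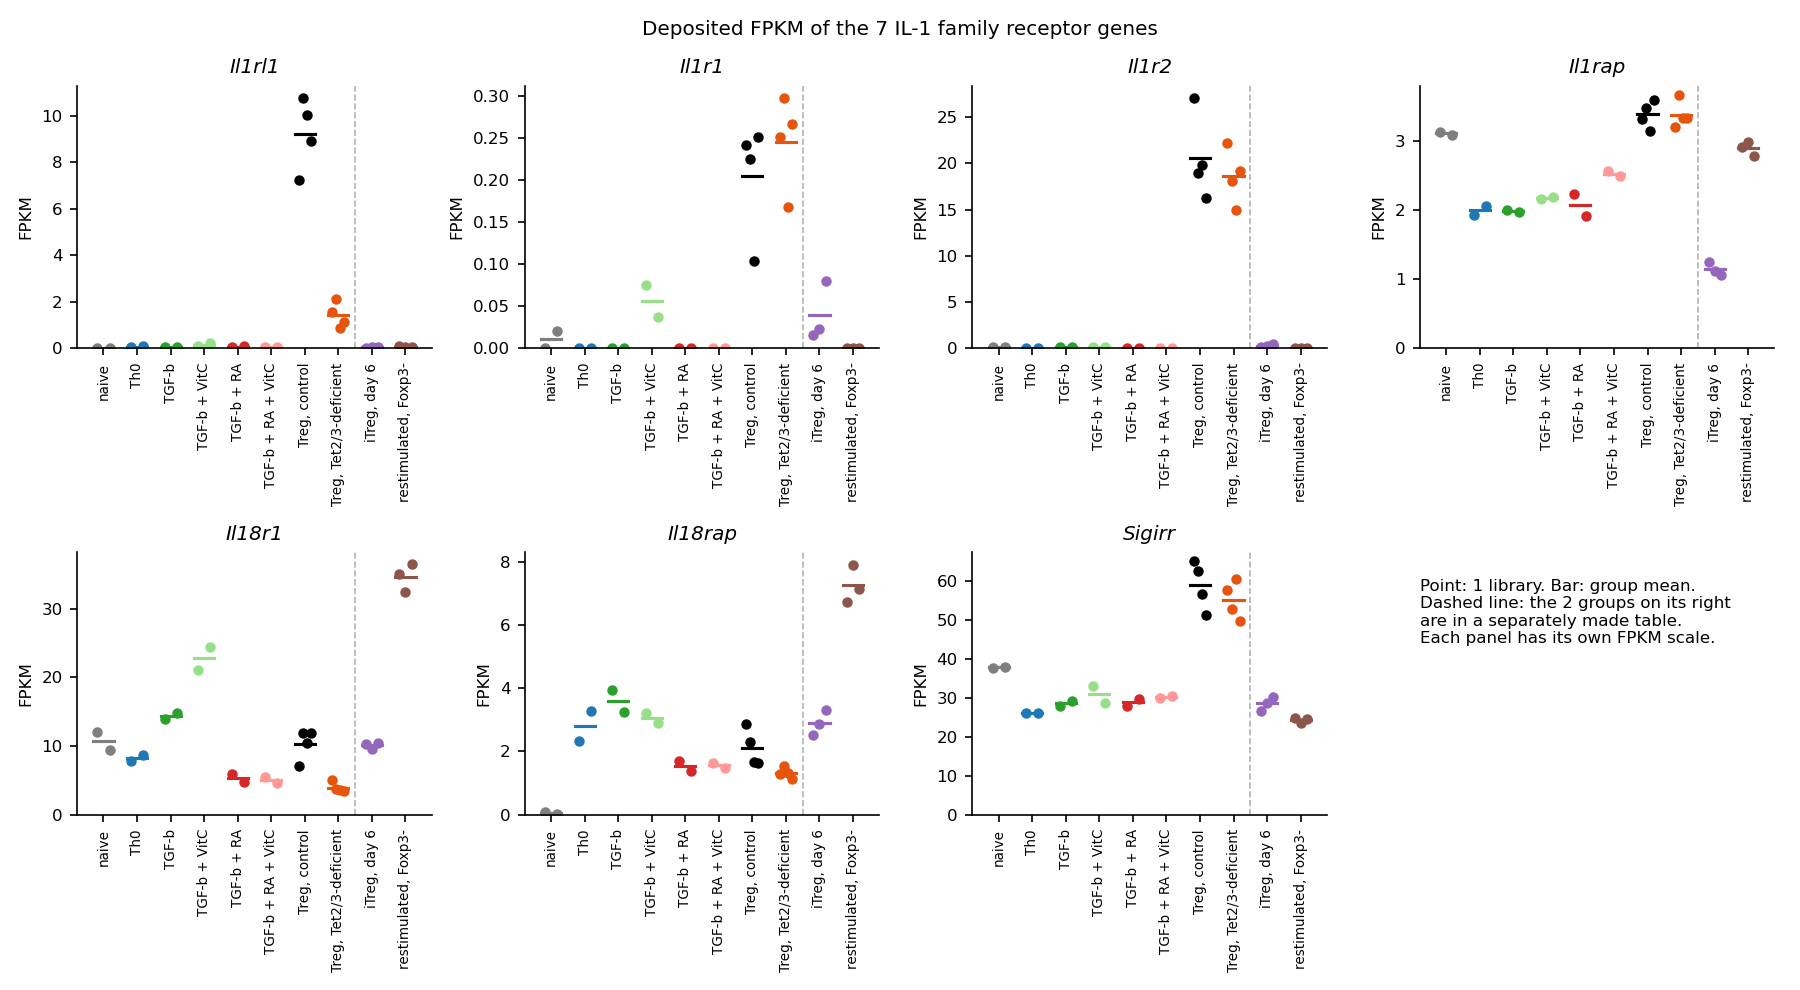
Deposited FPKM of each receptor gene (y axis, own linear scale per panel) in the 10 groups (x axis), with 1 point per library, a bar at the group mean and a dashed line before the separately made second table. Il1rl1, Il1r1 and Il1r2 have their highest points in the sorted Tregs, and only Il1rl1 of these differs between the Treg genotypes, at 9.24 against 1.42 FPKM on average.

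The comparison of Tet2/3-deficient with control Tregs asked how loss of both enzymes alters these cells. Il1rl1, Il18r1 and Il18rap were lower and no member was higher, so 3 of 7 members passed the test, against 32.5% of the 11679 genes tested. The median log2 fold change was -0.18 over the members and 0.00 over all genes tested. The 3 genes are next to each other on the chromosome.

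Il1rl1, the IL-33 receptor, had 50.72, 75.18, 70.07 and 62.45 CPM in control libraries S1 to S4 and 10.9, 14.72, 6.168 and 7.917 CPM in deficient libraries S5 to S8. The groups did not overlap, and even the lowest control library was far above the highest deficient one. The log2 fold change was -2.75 ± 0.26, a fold of 6.71 (adjusted p = 0.000208, edgeR quasi-likelihood test). Il1rl1 gives transcripts of membrane ST2 and of a soluble decoy form. The counts are per gene, with an exon length of 6992 bases, and do not separate these forms.

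Il18r1, the IL-18-binding chain, had 34.39, 57.01, 50.02 and 56.88 CPM in the controls and 24.03, 18.09, 16.98 and 16.57 CPM in the deficient libraries. These groups were also apart, with control S1 nearest to the deficient libraries. It fell by 1.43 on the log2 scale (SE 0.175, adjusted p = 0.000271). Il18rap, the accessory chain, had 11.96, 9.492, 6.903 and 6.78 CPM against 5.374, 6.364, 5.432 and 4.697 CPM. Its gap was narrow, 6.78 against 6.364 CPM between the nearest libraries, and it fell by 0.72 (SE 0.194, adjusted p = 0.0153). Both IL-18 receptor chains were thus lower in the deficient Tregs, the ligand-binding chain by more on the log2 scale. That difference between the chains was not tested.

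The partners and regulators of ST2 and the IL-1 receptors did not pass. Il1rap, the chain that ST2 needs to signal, had 26.77 to 30.57 CPM in the controls and 27.24 to 31.13 CPM in the deficient libraries (log2 fold change -0.04 ± 0.08, adjusted p = 0.732). Il1r2 ranged from 21.83 to 36.32 CPM against 20.14 to 29.86 CPM (-0.18 ± 0.16, adjusted p = 0.427), so its ranges overlapped. The inhibitory receptor Sigirr ranged from 117.3 to 149.3 CPM against 113.6 to 138.5 CPM (-0.13 ± 0.09, adjusted p = 0.262). Il1r1 had 65 and 76 counts in all over the 4 libraries of each group (0.22 ± 0.31, adjusted p = 0.625), the fewest counts and the largest SE of the 7.

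**Figure D2:**
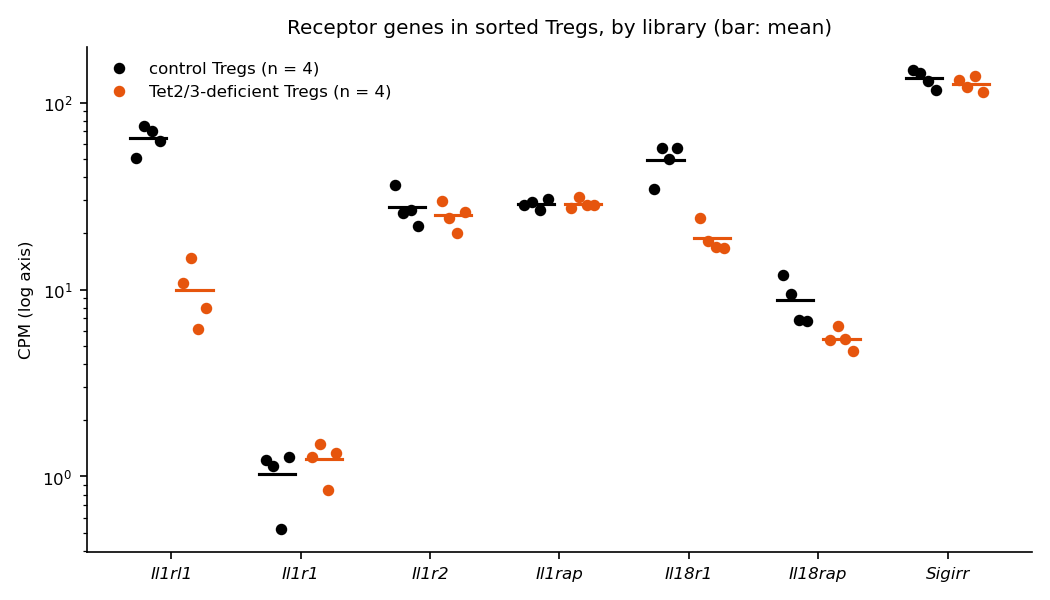
CPM on a log axis for each receptor gene in 4 control (black) and 4 Tet2/3-deficient (orange) Treg libraries, with 1 point per library and a bar at the mean. The 2 genotypes are apart for Il1rl1, Il18r1 and Il18rap and overlap for the other members.

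The block of receptor genes on chromosome 1 split in the middle. On one side of Il1rl1, Il1rl2 (-0.00 ± 0.24, adjusted p = 0.993), Il1r1, Il1r2 and the kinase gene Map4k4 (0.10 ± 0.09, adjusted p = 0.414) did not pass. On the other side, the adjoining Il18r1 and Il18rap were lower. Mfsd9, beyond them, did not pass (-0.31 ± 0.21, adjusted p = 0.281), and Slc9a4 and Slc9a2, which lie between, had too few counts to be tested.

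**Figure D3:**
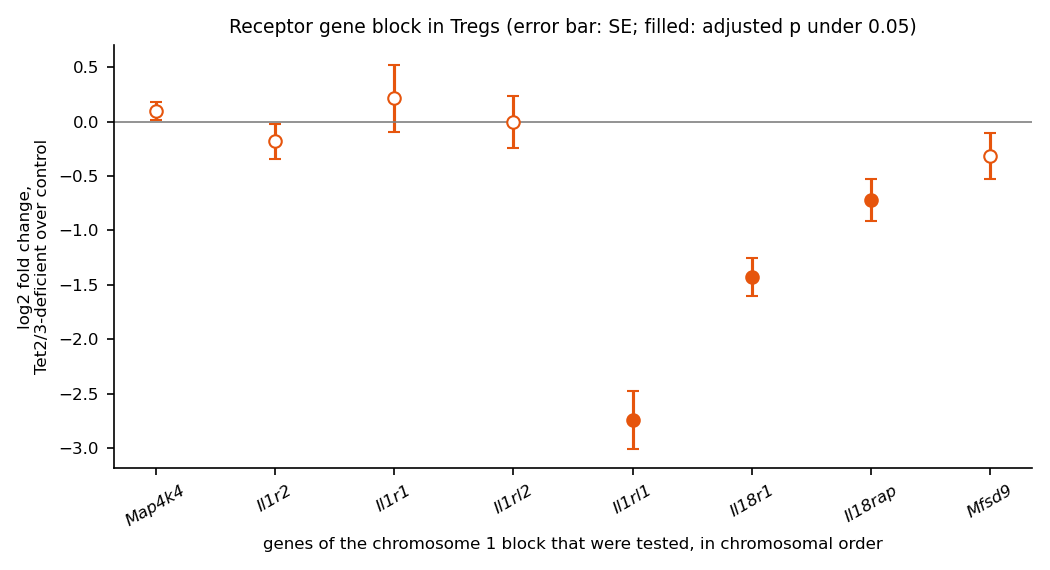
Log2 fold change (y axis, deficient over control Tregs, error bars SE) of the tested genes of the chromosome 1 block in chromosomal order (x axis, not to scale), filled where adjusted p was under 0.05. The filled points are Il1rl1 at -2.75, Il18r1 at -1.43 and Il18rap at -0.72, which are neighbours, and the other 5 points are open.

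Markers of other cells were measured beside these falls. Of 9 measured genes of the mast cell and basophil list, cells that carry much ST2, Fcer1a, Ms4a2, Mcpt8, Mcpt4 and Tpsb2 had 0 counts in both Treg groups, and the list summed to 7.61 to 13.1 CPM in controls and 9.26 to 13.7 CPM in deficient libraries. The 5 measured neutrophil markers summed to 15.4 to 37.3 and 23.2 to 34.7 CPM, and none was at 0 in these groups. The highest control sum was in S1, which also had the highest Il1r2, Il18rap and Sigirr and the lowest Il1rl1 and Il18r1 of the controls. The highest deficient sum was in S5, which had the highest Il1r2 and Il18r1 and the lowest Il1rap of the deficient libraries. CD8 T cell markers summed to 24.8 to 28.5 CPM in controls and 3.37 to 5.3 CPM in deficient libraries, without overlap. The B cell list summed to 45.9 to 111 against 47.4 to 64.6 CPM and the myeloid and dendritic list to 140 to 152 against 136 to 237 CPM. The NK and innate lymphoid list, for cells of which some carry ST2 or the IL-18 receptor, summed to 1420 to 1670 against 1520 to 1640 CPM. It includes Il2rb and Eomes, the latter also in the Th1 list, so its sum does not measure these cells alone. In iTregs with TGFb and vitamin C it reached 1210 to 1330 CPM with Klrb1c, Ncr1 and Klra8 at 0 counts. In the control Tregs no gene of this list was at 0 counts, and in the deficient Tregs only Klra8 was. Klrb1c and Ncr1 were thus detected in both Treg groups. The CD4 T cell list summed to 3220 to 3760 CPM in controls and 2660 to 3050 CPM in deficient libraries, also without overlap. The part of other cells in the results was not tested. Without control S1 and S3, the controls with the highest B cell sums, Il1rl1 stood at -2.83 (edgeR, adjusted p = 0.000815). Il18r1 then stood at -1.63 (1.75e-05) and Il18rap at -0.60 (0.0285). This set was chosen after seeing the data and does not test the part of other cells. The controls kept, S2 and S4, still had CD8 T cell marker sums of 24.8 and 26.1 CPM.

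Downstream of the receptors, the adaptor gene Myd88 did not pass in this comparison (0.02 ± 0.06, adjusted p = 0.799). Over all genes tested, 16.7% were higher and 15.8% lower. Of 24 tested genes of receptor-proximal signalling, 0 were higher and 4 lower, with a median log2 fold change of -0.09, so the share that was lower was near that of all genes. The 4 included Irak3, an inhibitory kinase-like protein (-1.84 ± 0.27, adjusted p = 0.000407), Peli2, a ubiquitin ligase (-1.10 ± 0.15, adjusted p = 0.000236), and Irak2 (-0.68 ± 0.09, adjusted p = 0.000208). Irak3 had 2.579 to 5.86 CPM in controls and 1.245 to 1.418 CPM in deficient libraries. Of 16 NF-kB genes, 0 were higher and 4 lower, with a median of -0.15. The lower ones included the feedback inhibitors Nfkbia (-0.54 ± 0.07, adjusted p = 0.000224) and Tnfaip3 (-0.45 ± 0.08, adjusted p = 0.00111) and the subunit gene Rela (-0.32 ± 0.06, adjusted p = 0.00192).

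Few ligand genes were detected in these T cells. Il33 did not exceed 2 counts summed over any group. Il18 had 141 counts in control and 185 in deficient Tregs. Il1rn, the IL-1 receptor antagonist, had 10, 35, 24 and 38 counts in controls and 3, 4, 0 and 12 in the deficient libraries (log2 fold change -2.45 ± 0.64, adjusted p = 0.0149), with ranges that overlapped in CPM. It was the 1 gene that passed among 4 tested ligand and soluble binder genes.

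Gene lists linked to each receptor moved in mixed directions in this comparison, where 16.7% of all genes tested were higher and 15.8% lower. Of 15 tested genes of ST2-positive Tregs and type 2 responses, 3 were higher and 7 lower, with a median of -0.31. The lower ones included the cytokine gene Il10 (-4.35 ± 0.29), the lectin receptor gene Klrg1 (-2.06 ± 0.28) and the nuclear receptor gene Rora (-1.61 ± 0.16). Gata3, which binds and activates Il1rl1 in type 2 cells, stood at 107.2 ± 7.97 and 108.7 ± 11.1 CPM (SD, n = 4 each). Of 10 IL-18 receptor and Th1 genes, 5 were higher, among them the transcription factor gene Eomes (2.83 ± 0.17), the IL-12 receptor gene Il12rb2 (2.12 ± 0.27) and the granule gene Nkg7 (1.84 ± 0.09), and 3 lower, with a median of -0.16. Of 7 IL-1 receptor and Th17 genes, 5 were lower, including the chemokine receptor gene Ccr6 (-2.17 ± 0.09) and the transcription factor gene Maf (-0.98 ± 0.09), and 1 was higher. The median of that list was -0.565.

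Control Tregs differed from naive cells in 5 of 7 members, all higher, where 54.9% of 11738 genes tested were called. Il1rl1, Il1r1, Il1r2 and Il18rap, with 0 to 4 counts in naive cells, passed the count filter only through the Tregs, so these could only be called higher and the 5 of 7 is not to be read against that share. Of the other members, Sigirr passed and Il1rap and Il18r1 did not. Il1rl1 had 0 counts in both naive libraries and 4067 over the control Tregs, at least 424-fold higher against a limit of 3 counts over the naive group. Il1r2 had 1703 against 3 counts, a ratio of 177 (95% exact interval 60.6 to 861), and Il1r1 had 65 against 1, a ratio of 20.3 (3.52 to 815). These intervals cover counting error only. Il18rap, with 4 counts in naive cells, was higher by 5.22 ± 0.49 on the log2 scale (adjusted p = 8.24e-06), and Sigirr by 0.50 ± 0.11 (adjusted p = 0.00278). Il1rap stood at -0.02 ± 0.11 (adjusted p = 0.905) and Il18r1 at -0.20 ± 0.22 (adjusted p = 0.476). Naive cells thus had transcripts of the IL-18-binding chain, at 45.09 and 58.13 CPM, with almost none of its accessory chain. The Tregs were also younger and carried floxed alleles, so age, alleles and cell type cannot be told apart here, and neutrophil markers summed to 0.311 to 0.403 CPM in naive cells against 15.4 to 37.3 CPM in the control Tregs, and B cell markers to 2.12 to 2.9 against 45.9 to 111 CPM. The part of these cells was not tested.

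Against iTregs made with TGFb alone, all 7 members passed, 5 higher and 2 lower in the control Tregs, where 61.4% of 11831 genes were called. Il1rl1, Il1r1 and Il1r2 passed the count filter only through the Tregs and could only be called higher, so the 7 of 7 is not to be read against that share. Foxp3 stood at 540.1 and 560.3 CPM in the TGFb libraries and 606.4 to 737.3 CPM in the control Tregs, yet Il1rl1, Il1r1 and Il1r2 were nearly absent from the former. Il1rl1 had 2 and 4 counts in the TGFb libraries, and the control Tregs were higher by 7.76 ± 0.33 (adjusted p = 5.75e-08). Il1r2 had 1 count in each TGFb library, a ratio of 292 (80.6 to 2410), and Il1r1 had 0, so it was at least 7.42-fold higher in the Tregs. Sigirr (1.00 ± 0.11, adjusted p = 3.53e-05) and Il1rap (0.72 ± 0.12, adjusted p = 0.000379) were higher as well. The IL-18 receptor chains went the other way, Il18r1 by -0.52 ± 0.19 (adjusted p = 0.0404) and Il18rap by -0.82 ± 0.23 (adjusted p = 0.0118). These calls of both chains depended on single libraries: Il18r1 was lost without TGFb 1 (adjusted p = 0.138), TGFb 2 (0.186) or control S3 (0.0846) and with limma (0.056), and Il18rap was lost without TGFb 1 (0.12). Age, floxed alleles and culture differ between these groups and cannot be told apart. Neutrophil markers summed to 0.0912 and 0.191 CPM in the TGFb libraries and B cell markers to 3.05 and 3.47 CPM, against 15.4 to 37.3 and 45.9 to 111 CPM in the control Tregs, and their part was not tested.

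In the cultured groups of the first table, 4 members had enough counts to be tested: Il1rap, Il18r1, Il18rap and Sigirr. The other 3 stayed under the count filter, with at most 22 counts over a group for Il1rl1 (TGFb with vitamin C, 6 and 16 counts), 6 for Il1r1 and 4 for Il1r2. All 4 tested members changed between naive and Th0 cells, where 72% of 11287 genes were called. Il18rap, with 3 and 1 counts in the naive libraries, passed the count filter only through the cultured groups. It could only be called higher, so the 4 of 4 is not to be read against that share. Il18rap went from 0.3022 and 0.1037 CPM in naive to 9.66 and 13.6 CPM in Th0 libraries (5.72 ± 0.40, adjusted p = 4.84e-09). The accessory chain of the IL-18 receptor was thus near 0 before activation and present after it, while the other members tested fell: Il1rap by 0.67 (SE 0.12, adjusted p = 0.00013), Sigirr by 0.56 (SE 0.0916, adjusted p = 5.25e-05) and Il18r1 by 0.42 (SE 0.144, adjusted p = 0.0165). The call for Il18r1 was lost without naive 1 (adjusted p = 0.25) and without Th0 1 (0.123).

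Il18r1 was called in more of the iTreg comparisons than the other tested members. It had 37.37 and 41.5 CPM in Th0 cells, 67.13 and 71.32 with TGFb, 101.4 and 117.5 with TGFb and vitamin C, 28.63 and 22.63 with TGFb and retinoic acid, and 26.45 and 21.99 with all 3. The libraries with vitamin C and no retinoic acid were the highest and those with retinoic acid the lowest, and the 2 retinoic acid groups overlapped. TGFb raised it over Th0 by 0.78 ± 0.14 (adjusted p = 0.00107), 1 of 4 tested members called, against 26.1% of genes. Vitamin C added to TGFb raised it by a further 0.64 ± 0.13 (adjusted p = 0.00552), again 1 of 4 against 16.8%. That call was lost without TGFb with vitamin C replicate 2, where it stood at 0.53 with an adjusted p of 0.0521, leaving 0 of 4 members.

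Retinoic acid lowered both chains of the IL-18 receptor. Added to TGFb, it called 2 of 4 members, both lower, against 16.5% of genes. Il18r1 fell by 1.44 (SE 0.147, adjusted p = 1.15e-05), and Il18rap went from 16.42 and 13.54 to 7.086 and 5.708 CPM, a fall of 1.24 (SE 0.201, adjusted p = 0.000641). Added to TGFb with vitamin C, it again called these 2 of 4, against 15.1% of genes. Il18r1 fell by 2.18 (SE 0.146, adjusted p = 1.11e-07), and Il18rap went from 13.32 and 12.1 to 6.829 and 6.185 CPM, a fall of 0.97 (SE 0.202, adjusted p = 0.00381). These comparisons share libraries with the vitamin C comparisons. Sigirr and Il1rap did not pass in either; Sigirr ran from 63.85 to 75.75 CPM over the 8 iTreg libraries.

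Vitamin C did not raise Il18r1 past the threshold when retinoic acid was present (-0.10 ± 0.16, adjusted p = 0.781). In that comparison 0 of 4 members were called by edgeR, against 7.54% of genes, with 1 at an unadjusted p under 0.05 (Il1rap, 0.26 ± 0.12, adjusted p = 0.219) and 0 by DESeq2 and by limma. The difference between the vitamin C responses with and without retinoic acid was -0.74 ± 0.21 for Il18r1, with an unadjusted p of 0.00269 and an adjusted p of 0.474. None of the 4 members passed in this interaction test by edgeR, DESeq2 or limma, against 0.0177% of genes, and 1 had an unadjusted p under 0.05.

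Markers of other cells also differed among the iTreg groups, and their part in these results was not tested. The mast cell and basophil list summed to 29.7 CPM in both TGFb libraries, 55.1 to 70.2 with retinoic acid, 6.93 to 7.37 with vitamin C and 11.7 to 13.1 with both, while Fcer1a, Ms4a2, Mcpt8, Mcpt4 and Tpsb2 had 0 counts in all 4 groups. The myeloid and dendritic list summed to 108 to 121, 65.8 to 81.3, 116 to 126 and 89.2 to 95.1 CPM in the same order, with Csf1r and Cd14 at 0 throughout. The 2 CD8 T cell markers summed to 13.2 to 15.4, 11 to 11.6, 23.3 to 28.2 and 39 to 42.1 CPM. The B cell list summed to 3.05 to 3.47, 5.81 to 6.05, 4.52 to 6.8 and 11.6 to 14.6 CPM, with Ms4a1, Cd22 and Pax5 among the markers at 0 in all 4 groups. The NK and innate lymphoid list summed to 866 to 1000, 970 to 1030, 1210 to 1330 and 1130 to 1170 CPM, with Klrb1c, Ncr1 and Klra8 at 0. The mast cell and basophil sums came from list members other than those named at 0. Whether these sums follow such cells was not tested.

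**Figure D4:**
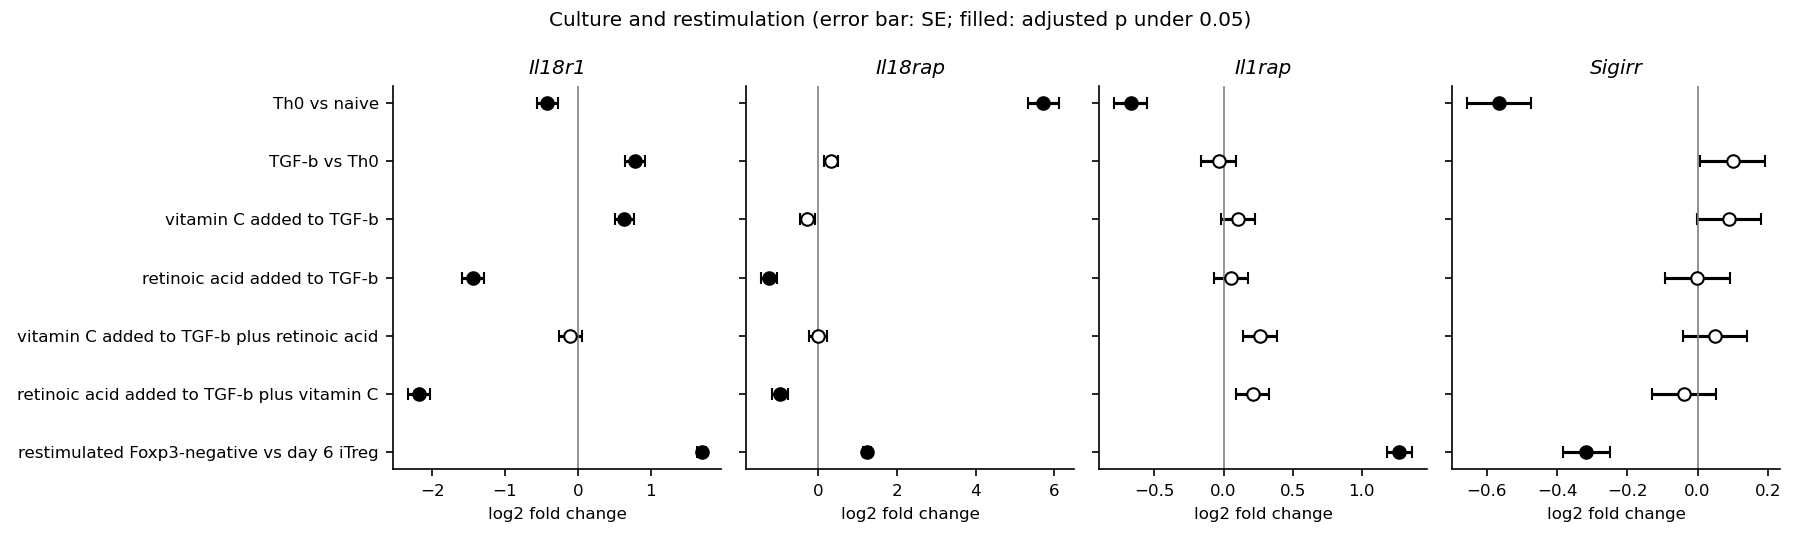
Log2 fold change (x axis, own scale per panel, error bars SE) of the 4 tested members in the 7 culture and restimulation comparisons (y axis), filled where adjusted p was under 0.05. Il18r1 is filled in 6 of 7 comparisons, at 0.64 with vitamin C and -1.44 with retinoic acid, whereas Sigirr and Il1rap are open in every comparison among iTregs of the first table.

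Other genes of the pathway also differed among iTregs. With vitamin C added to TGFb, where 8.84% of all genes were higher and 7.99% lower, 3 of 24 receptor-proximal genes were higher, including Irak2 (0.69 ± 0.12, adjusted p = 0.00119), and 5 of 16 NF-kB genes, including Relb (0.77 ± 0.15, adjusted p = 0.00329), with 0 lower in both lists. The medians were 0.10 and 0.39, and that of all genes was 0.00. Il18bp, which encodes the soluble protein that traps IL-18, was higher with vitamin C alone (1.00 ± 0.30, adjusted p = 0.0327) and with retinoic acid present (1.19 ± 0.28, adjusted p = 0.0173). Its levels were 2.645 ± 0.774 CPM with TGFb, 5.409 ± 0.838 with vitamin C, 3.022 ± 0.399 with retinoic acid and 6.99 ± 0.0442 with both (SD, n = 2 each). With retinoic acid added to TGFb, where 7.19% of all genes were higher and 9.29% lower, 4 of 8 IL-18 receptor and Th1 genes were lower, among them the IL-12 receptor genes Il12rb2 (-1.59 ± 0.29, adjusted p = 0.00171) and Il12rb1 (-1.22 ± 0.16, adjusted p = 0.000114), and 2 were higher, including Nkg7 (2.25 ± 0.22, adjusted p = 6.61e-06). The list's median was -0.80, and that of all genes was 0.02.

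Restimulated Foxp3- cells differed from day 6 iTregs in all 4 tested members, against 68.8% of 11252 genes. Their Foxp3 was at 13.55 to 17.77 CPM against 301.7 to 337.8 CPM. Il18r1 went from 49.63, 46.28 and 50.34 CPM to 168.6, 155.8 and 175.9 CPM, a rise of 1.697 ± 0.0624 (adjusted p = 5.25e-12), and its partner Il18rap from 10.47, 11.85 and 13.75 to 27.98, 32.83 and 29.66 CPM (1.25 ± 0.10, adjusted p = 5.97e-08). Every restimulated library was above every day 6 library for both chains. Il1rap went from 10.55, 9.466 and 9.014 to 24.79, 25.39 and 23.6 CPM (1.27 ± 0.09, adjusted p = 1.1e-08). Sigirr fell slightly, from 60.91, 65.85 and 69.3 to 57.02, 53.62 and 55.97 CPM (-0.32 ± 0.07, adjusted p = 0.000557). Il1rl1 stayed near the limit of detection, with 10 counts over the day 6 libraries and 16 over the restimulated ones. Both IL-1-binding receptors were found only as traces in day 6 iTregs. Il1r1 had 9 counts there and 0 after restimulation (at least 2.87-fold lower), and Il1r2 had 14 and 0 (at least 4.46-fold lower). Sort, time in culture and restimulation differ together between the 2 groups and cannot be told apart. The myeloid and dendritic list summed to 110 to 131 CPM on day 6 and 71.2 to 76.1 after restimulation, and the CD8 T cell markers to 14.2 to 16.3 and 9.22 to 11.4 CPM. In the same order, the NK and innate lymphoid list summed to 756 to 909 and 637 to 641 CPM. The mast cell and basophil list summed to 14.7 to 18.9 and 11.5 to 13.1 CPM, and the B cell list to 2.61 to 3.54 and 1.42 to 2.58 CPM. The stromal and endothelial list was higher after restimulation, at 71.9 to 80.5 and 91.5 to 95.4 CPM. The part of these cells was not tested.

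The Th1 list moved with the IL-18 receptor in that comparison: 8 of 9 tested genes were higher and 0 lower, with a median of 2.04 against -0.01 for all genes, of which 33.6% were higher and 35.2% lower. The largest differences were in the chemokine receptor gene Cxcr3 (7.91 ± 0.13), the Th1 regulator gene Tbx21 (6.02 ± 0.22) and Nkg7 (4.91 ± 0.11). Of 23 receptor-proximal genes 13 were higher and 6 lower, led by Irak3 (2.65 ± 0.13, adjusted p = 9.79e-11). Il18bp was lower (-1.11 ± 0.21, adjusted p = 0.000285).

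The balance of the 2 IL-18 receptor chains set naive cells apart. Il18r1 FPKM was 166 and 375 times Il18rap FPKM in the naive libraries, with 1 and 3 counts of Il18rap behind those ratios. In the other 9 groups the median ratio lay between 2.865 and 7.465, highest with TGFb and vitamin C (6.56 and 8.37). Control Tregs ranged from 2.48 in S1 to 7.23, wider than the deficient libraries at 2.45 to 3.85, and the 2 ranges overlapped.

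**Figure D5:**
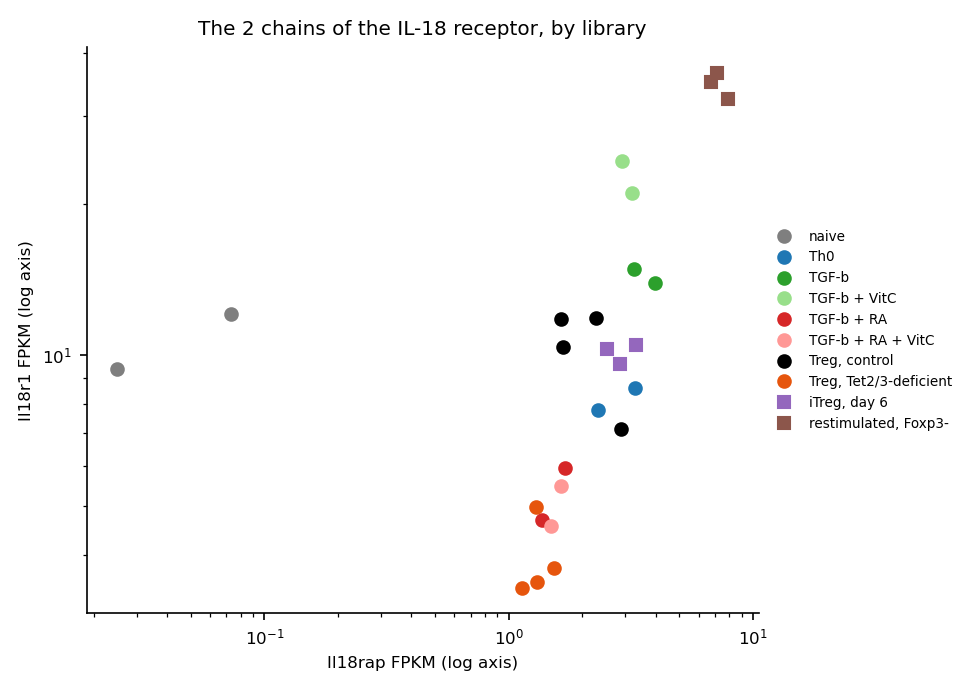
FPKM of Il18r1 (y axis, log) against Il18rap (x axis, log), with 1 point per library, circles for the first table and squares for the separately made second table. The naive libraries lie far to the left, with 0.02498 and 0.07285 FPKM of Il18rap, and the restimulated libraries lie at the upper right, with 32.34 to 36.51 FPKM of Il18r1.

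Genes with the most similar pattern were looked up over the 8 group means of the first table, as Pearson's r of log2(CPM + 1), among the 10327 genes that reached 5 CPM in a group. The means share libraries and depth, and a gene high in only the 2 Treg groups reaches a high r easily, so these are descriptions. Nearest to Il1rl1 were Dsg2 (r = 0.9975), Ptrf (0.9930) and Rin2 (0.9930), and nearest to Il1r2 were 4930511M06Rik (0.9994), Ceacam19 (0.9992) and A830018L16Rik (0.9990). Il1rl1 and Il1r2 themselves had r = 0.942. For Il18r1 the nearest genes were less close, among them Lpin1 (0.9368) and Stk40 (0.8467), and its r with its partner chain Il18rap was 0.215. Nearest to Il18rap were Capg (0.9907), Grn (0.9866) and Rac1 (0.9847), to Il1rap Wash1 (0.9873), Pigp (0.9864) and E130311K13Rik (0.9857), and to Sigirr Apol9b (0.9934), Serp1 (0.9926) and Smap1 (0.9918). Il1r1, whose highest group mean was 1.24 CPM, was nearest to Fam160a1 (0.9959), Cox15 (0.9942) and Stom (0.9927).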

How the data were processed

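RNA from the sorted or cultured CD4 T cells was made into libraries with a TruSeq stranded mRNA kit, per the labels' protocols. The authors deposited read counts per gene, and FPKM computed from them: each nonzero FPKM equalled count divided by library total and exon length within 1e-05 for 267733 and 80830 values of the 2 tables. The submitters' processing notes name mm9, Trim Galore 0.4.2, TopHat2 2.1.1, SAMtools 1.7 and Picard 2.5.0; the counting tool, annotation release and strand setting are not given in the sources used here. Groups came from the labels. Column numbers of the sorted Tregs match a group but no single sample.

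Deposited counts were tested with edgeR 4.0.16 (TMM factors, filterByExpr, robust quasi-likelihood test, 2-sided, R 4.3.3), with Benjamini-Hochberg adjustment over all genes tested and a threshold of 0.05. Sorted Treg comparisons used the 2 groups compared, culture comparisons 1 fit of the 6 naive and cultured groups, and the restimulation comparison its own table. The tables were not pooled. CPM is count over library total. Folds against 0 counts used a floor of 3 counts over the group. Alternatives were DESeq2 1.42.0, limma 3.58.1 on log2(FPKM + 1), RLE factors, no count filter, other sets of libraries, a replicate block and leaving out each library. The scripts were tested on simulated data.

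The members, lists and tests were chosen with earlier results of these data known. Named were the members, up to 3 called genes per list and comparison with the largest change and a mean of at least 1 CPM, the 3 genes most alike in pattern to each member, the 5 nearest genes on either side of the chromosome 1 block, and Foxp3, Tet2 and Tet3. Markers and Gata3, Il18, Il33 and Il18bp levels came from the lists. The alternative without control S1 and S3 was chosen after seeing the data. Some genes that this rule or the marker lists name are not reported here.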

Additional observations from a re-analysis of the deposited data

How the results depend on the processing

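For 53 fold changes of members, 606 values were computed under the alternatives: 598 kept their side of the threshold, 8 lost the call (Il18r1 and Il18rap, named with their libraries in the report), 0 gained one and 0 called values reversed. The 3 members called in Tet2/3-deficient Tregs stayed 3 under every alternative run. Members called with vitamin C added to TGFb ranged from 0 to 1 when 1 library was left out, being 0 without TGFb with vitamin C replicate 2, those in control Tregs against TGFb iTregs from 5 to 7 (5 without TGFb replicate 1), and those in Th0 against naive cells from 3 to 4; without the count filter the last were 5, and those in restimulated cells 6 in place of 4. Numbers of all genes called moved more. With 1 library left out they ranged from 1480 to 1945 for TGFb against Th0 (2943 with all libraries), 771 to 1001 for vitamin C (1900), 795 to 1898 for retinoic acid (1860), 424 to 899 for vitamin C with retinoic acid (851), 819 to 1367 for retinoic acid with vitamin C (1706) and 1 to 11 for the interaction (2). In these fits a group of 1 library is assumed to vary like the others. With only the groups compared, 487 genes were called for vitamin C with retinoic acid. For the interaction, DESeq2 called 17 genes, no count filter 25 and limma 23. The order of a gene's group means is the same in CPM and FPKM by construction, since exon length is fixed within a gene. It is therefore no check of the processing.

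With the replicate number as a block, 1363 genes were called for vitamin C with retinoic acid against 851, and 26 against 2 for the interaction; no call of a member changed. Deviations of same-numbered libraries correlated at 0.00206 to 0.601 in culture. In the restimulation table they correlated at 0.0551, 0.158 and 0.247, and each restimulated library correlated best with its own number, a hint from the data and not the design. No paired analysis was possible for the sorted Tregs because their column numbers match no sample.

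Depth limits Il1r1, with 65 to 76 counts per Treg group, and Il1rl1, Il1r1 and Il1r2 in culture, where 3 counts over a group correspond to 0.136 to 0.153 CPM.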

Other observations

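Genes beside the receptors on chromosome 1 had patterns of their own. Il1rl2, the IL-36 receptor, was highest in naive cells, at 13.2 and 15.96 CPM, and lower in Th0 (-1.07 ± 0.25, adjusted p = 0.00125, edgeR), lower again with TGFb (-1.95 ± 0.32, adjusted p = 0.000482) and with retinoic acid added (-2.64 ± 0.58, adjusted p = 0.00604). In control Tregs it was lower than in naive cells by -3.50 ± 0.23 (adjusted p = 4.83e-07), while its neighbour Il1rl1 was higher there.

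Slc9a2, a sodium-proton exchanger gene beyond Il18rap, had 0 counts in both naive libraries, at most 2 in any sorted Treg library, and 12.22 and 7.342 CPM with TGFb. It was lower with vitamin C (-2.41 ± 0.33, adjusted p = 0.000375), where Il18r1 was higher, and with retinoic acid (-3.01 ± 0.36, adjusted p = 7.23e-05), where Il18r1 was lower too. With both supplements it had 0 and 1 counts. In restimulated cells it rose from 7.976, 5.807 and 5.074 to 21.16, 20.86 and 16.7 CPM (1.57 ± 0.14, adjusted p = 2.13e-07).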
